A study of Mus musculus with 3 samples.

Results

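Hyaluronan is made, bound and broken down by a small set of proteins, and 8 of their genes were followed here through the cell populations of the growing mouse long bone: *Cemip*, *Has1*, *Has2*, *Has3*, *Hyal1*, *Hyal2*, *Cd44* and *Tnfaip6*. They are 8 of the 55422 genes in the count tables and were picked by symbol. The choice was made with results of these data known: *Cemip* lay far higher in septoclasts than in metaphyseal stromal cells, so the septoclast and metaphyseal stromal levels are given as a description with no test between them. The study asked which stromal cells resorb cartilage at the growth plate. It measured single-cell RNA in 3 libraries from untreated C57BL/6 mice at postnatal week 3. Both metaphyseal libraries (replicates 1 and 2) hold metaphyseal cells of wild-type males from which haematopoietic lineage, CD45 and CD117 cells were removed with magnetic beads. The Pdgfra-GFP library (replicate 1) holds GFP-positive cells sorted from femur and tibia of males heterozygous for an H2B-GFP knock-in at *Pdgfra*. The sort was thus for cells in which that receptor's promoter is or was active. By marker genes the library also held 316 endothelial cells, 77 macrophages, 63 neutrophil precursors, 57 erythroid and 54 B-lineage cells. Their GFP level is not given here. The paper's results name the metaphysis and epiphysis as the region taken for this library, and its methods the metaphysis. The labels do not say how many animals went into a library or that they were separate. The p values below thus rest on how far differences between populations vary from library to library, and that spread may be technical.

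Hyaluronan is a long unbranched sugar polymer that synthases at the cell membrane (the *Has* genes) extrude directly into the matrix. Hyaluronidases cut it, with HYAL2 at the cell surface and HYAL1 in the lysosome, and CEMIP binds hyaluronan and is needed for a separate route of breaking it down. CD44 is its main cell-surface receptor, and TNFAIP6 (also called TSG-6) transfers protein heavy chains onto it. In cartilage it is the backbone on which aggrecan and link protein assemble, and cartilage matrix is removed at the growth plate as bone forms.

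Cells were grouped by marker genes that include no member. Replicates 1 and 2 of the metaphyseal libraries and the Pdgfra-GFP library gave 2389, 2011 and 11319 cells with medians of 6257, 6458 and 5354 UMIs per cell, a UMI being 1 counted RNA molecule. Septoclasts (SC), metaphyseal stromal cells (mpMSC), diaphyseal-type stromal cells positive for *Lepr* and *Cxcl12* (dpMSC), osteoblasts (OB), chondrocytes and endothelial cells (EC) were present in each library. The libraries labelled metaphyseal mesenchymal stromal cells were 45.5% and 42.7% EC, against 2.79% in the Pdgfra-GFP library. Fibroblasts, superficial chondrocytes and macrophages reached 10 cells in the Pdgfra-GFP library alone and have 1 value each. The metaphyseal libraries shared 0 cell barcodes, and replicates 1 and 2 shared 9 and 10 with the Pdgfra-GFP library, none of them SC.

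The SC were few: 10, 14 and 183 cells. A cell counted as SC with at least 4 of 8 markers on, including 1 of *Sstr2*, *Cd55* and *Otos*, and exactly 4 were on in 5, 4 and 64 of them. *Mmp13*, which the gate did not use, stood at 9289, 12557 and 10815 CPM (UMIs per 1e+06 UMIs of the population) in SC. Its levels in other populations are not given here, and it is not particular to SC. It was also among the leading genes of a cluster named mpMSC in the Pdgfra-GFP library. In metaphyseal replicate 1 it was among those of a cluster named dpMSC. The osteoclast genes *Ocstamp* and *Calcr* were at 0 in SC of all 3 libraries, and *Acp5*, *Ctsk*, *Dcstamp* and *Oscar* are not given here. SC of the metaphyseal libraries held 104851 and 138651 UMIs, too few for a 0 to show that a gene of low level is absent. Markers of other cells were found beside the SC markers. The summed CPM of the 5 chondrocyte markers was 28.6, 498 and 425, that of the 4 OB markers 181, 14.4 and 790, and that of the 5 mural markers 773, 57.7 and 314. The part of these markers in the levels below was not tested.

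Differences were tested against dpMSC, the largest stromal population, on UMIs summed per library and population with the library as a block (quasi-likelihood F-test in edgeR, p adjusted over 13024 genes by Benjamini and Hochberg). Populations of a library come from 1 cell suspension. *Has1* and *Has3* had too few UMIs to be tested, and *Cemip* was not tested in SC or mpMSC. Of the 6 members tested in chondrocytes, 3 were higher (*Cemip*, *Has2*, *Hyal2*) and 1 was lower (*Hyal1*), where 27.7% of all genes were higher and 27.8% lower. In OB, 2 of 6 were higher (*Cemip*, *Cd44*; all genes 28.1%) and 3 were lower (*Hyal1*, *Hyal2*, *Tnfaip6*; all genes 29.5%). In EC, 1 of 6 was higher (*Hyal2*; all genes 29.9%) and 3 were lower (*Has2*, *Cd44*, *Tnfaip6*; all genes 26.1%). In mpMSC, 2 of 5 were higher (*Has2*, *Cd44*; all genes 15.9%) and 1 was lower (*Hyal1*; all genes 14.6%). In SC, 1 of 5 was higher (*Cd44*; all genes 11.2%) and 1 was lower (*Tnfaip6*; all genes 11.3%). With 5 or 6 members tested per population, a share says little against this background, and the values are given gene by gene.

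**Figure D1:**
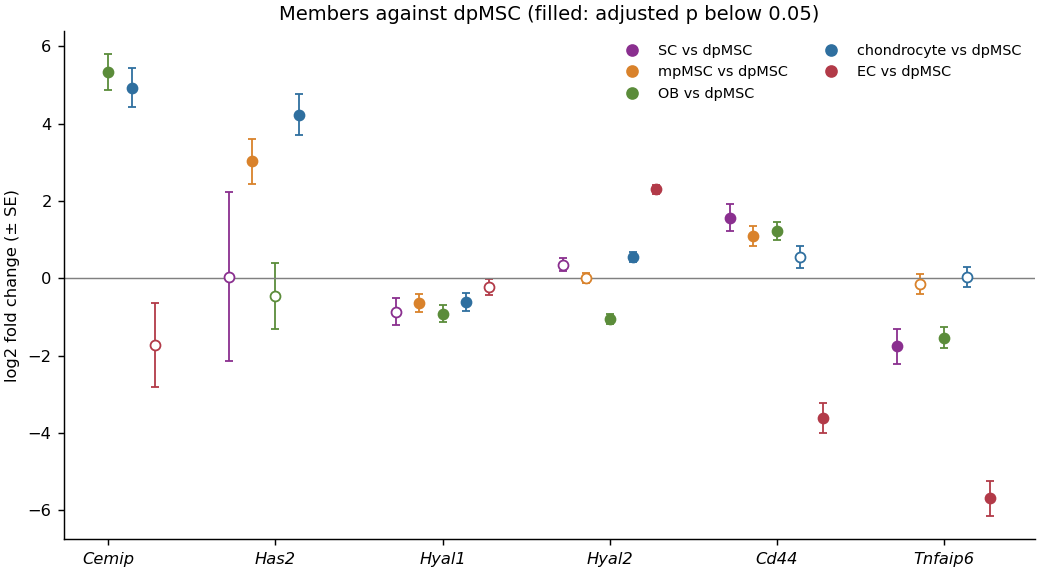
Log2 fold change (± SE) of 6 members against dpMSC by population, on the vertical axis, where filled points passed the test and open points did not. *Cemip* in SC and mpMSC, which was not tested, and *Has2* in EC, at 0 UMIs, are left out. The SE is the absolute log2 fold change divided by the square root of F. *Cemip* stands highest in OB (5.33) and chondrocytes (4.93), and *Tnfaip6* lowest in EC (-5.69).

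The scale matters in OB and chondrocytes. Fold changes are relative to the bulk of genes (TMM scaling); with plain scaling by total UMIs the median of all genes shifted by -0.91 in OB and -0.51 in chondrocytes on the log2 scale, by -0.12 in EC, and by -0.09 and -0.03 in mpMSC and SC. The share of called genes that were higher then went from 48.8% to 14.2% in OB and from 50.0% to 25.2% in chondrocytes. CPM levels below are on the plain scale. Among members this ended 2 calls, *Cd44* in OB and *Hyal2* in chondrocytes, and both are marked below.

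*Cemip* (ENSMUSG00000052353.13, GRCm38 chr7:83932857-84086502, minus strand) is the gene whose septoclast level chose the members. In SC it stood at 28.6 CPM in metaphyseal replicate 1 (3 UMIs), 317 CPM in metaphyseal replicate 2 (44 UMIs) and 149 CPM in the Pdgfra-GFP library (242 UMIs), with 95% Poisson intervals, which cover counting error only, of 5.9 to 83.6, 231 to 426 and 131 to 169. The mpMSC held 8.83, 11.1 and 2.81 CPM of *Cemip*. These are the values that chose the members: the SC level was 3.24, 28.6 and 53.0 times the mpMSC level, a mean difference of 3.87 ± 1.99 (SD, n = 3) on the log2(CPM + 1) scale, or 14.6 times. Metaphyseal replicate 1 stood apart, with an interval that reached below its mpMSC level of 8.83, and the mean ratio was 32.2 without that library, 10.9 without metaphyseal replicate 2 and 8.91 without the Pdgfra-GFP library.

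Within SC, *Cemip* came from a minority of cells. Its 44 UMIs in metaphyseal replicate 2 lay in 6 of 14 cells, and 1 cell held 18 of them, or 40.9%. Without that cell the *Cemip* level was 195 CPM. In the Pdgfra-GFP library 65 of 183 cells held the 242 UMIs, the top cell 24 of them (9.92%). After each cell was thinned to 2000 UMIs, 0 of 10, 5 of 14 and 35 of 180 SC held a *Cemip* UMI, which is 0%, 35.7% and 19.4%, where 0 of 10 allows a share of up to 30.8%. The same share was 2.5%, 2.99% and 0.517% in mpMSC, and it was 0%, 0% and 0.332% in EC. Unthinned, the SC shares were 20%, 42.9% and 35.5%, at median depths of 9844, 9340 and 8555 UMIs. The EC had medians of 5938, 6149 and 4626.5 UMIs.

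In the Pdgfra-GFP library *Cemip* was highest in cells with 6 or more SC markers on, and the metaphyseal libraries had too few such cells to give a value. In the Pdgfra-GFP library its level was 14.5 CPM in cells with 0 markers on, 5.96 CPM at 1, 14.4 CPM at 2, 28.0 CPM at 3, 52.7 CPM at 5 and 250 CPM at 6. It was 339 CPM at 7 and 359 CPM at 8, the last over 11 cells. Cells with 4 markers on, the lowest number the SC gate takes, stood at 23.2 CPM (15 UMIs in 78 cells). In the metaphyseal libraries *Cemip* was no higher at 1 to 3 markers than at 0: it went from 20.8 CPM at 0 markers to 8.63 CPM at 3 in replicate 1 and from 16.2 to 11.1 CPM in replicate 2. The bins leave out cells of non-stromal gates but not OB and late OB. In metaphyseal replicate 1 these held 115 and 29 *Cemip* UMIs, and the bin at 0 markers 141. Their part in the bins was not set apart. Values of 26.7 CPM at 4 markers in replicate 1 and 62.5 CPM at 5 in replicate 2 rest on 2 and 4 UMIs. This is the contrast that chose the members, seen cell by cell. In the Pdgfra-GFP library median depth was 4758 UMIs per cell at 0 markers and 11802 at 8, and its part was not tested.

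**Figure D2:**
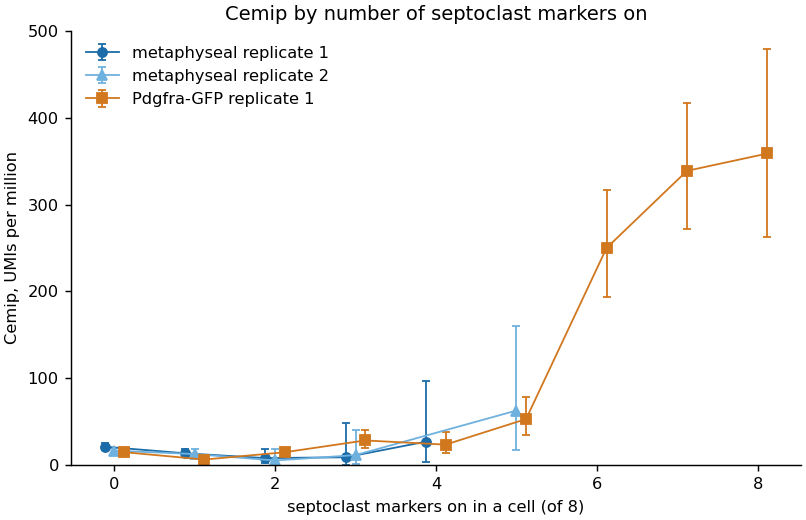
*Cemip* level (CPM, with 95% Poisson intervals) against the number of 8 septoclast markers on in a cell, for cells that passed no non-stromal gate, in bins of at least 5 cells per library. The Pdgfra-GFP library rises from 52.7 at 5 markers to 250 at 6; bins of the metaphyseal libraries end at 4 and 5 markers.

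Outside SC, *Cemip* was a gene of osteoblasts and chondrocytes as well. OB held 35.6, 32.1 and 24.3 CPM, late OB and osteocytes (cells with *Dmp1* or *Mepe*) 40.5, 32.4 and 24.1 CPM, and chondrocytes 23.6, 30.4 and 30.4 CPM of *Cemip*. Late OB is the name of the gate: in metaphyseal replicates 1 and 2, 5 of 36 and 9 of 28 such cells lay in clusters named chondrocyte. The dpMSC stood at 0.683, 0 and 1.98 CPM, below every OB and chondrocyte value. Against dpMSC, *Cemip* was 40.3-fold higher in OB (log2 5.33 ± 0.46 SE, adjusted p = 8.58e-09) and 30.5-fold higher in chondrocytes (log2 4.93 ± 0.50, adjusted p = 9.27e-08), in 3 of 3 libraries each. Both sizes rest on few dpMSC UMIs: without the Pdgfra-GFP library, which holds most of them, they were 7.16 and 6.50 on the log2 scale. In EC (0.29, 0.179 and 1.2 CPM) the difference from dpMSC was -1.73 ± 1.09 and did not pass (adjusted p = 0.189), except in a fit with no low-count filter (adjusted p = 0.0198). OB, late OB and chondrocytes differed from each other by less than the spread between libraries, at means of 4.97 ± 0.28, 5.03 ± 0.36 and 4.86 ± 0.20 (SD, n = 3) on the log2(CPM + 1) scale. In metaphyseal replicate 1 the SC value of 28.6 CPM lay below the OB value of 35.6 CPM. Near-empty droplets, with at most 100 UMIs, held 13.0, 25.6 and 17.6 CPM of *Cemip*, and the part of free RNA in these levels was not tested.

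Chondrocytes were not uniform in *Cemip*. In the Pdgfra-GFP library a cluster led by *Sfrp5*, *Chil1* and *Efemp1* held 80.1 CPM (151 UMIs, 236 cells), while the cluster led by the hypertrophic collagen *Col10a1* held 38.0 CPM and the cycling cluster led by *Cdk1* and *Cenpf* 6.49 CPM (8 UMIs). The *Sfrp5*-led and the cycling cluster come from 1 library, so their differences have no replicate check. In metaphyseal replicates 1 and 2 the *Col10a1*-led clusters held 33.7 and 49.8 CPM of *Cemip* (11 and 14 UMIs). The chondrocyte gate gave 51.5% and 45.8% of their cells. The *Col2a1*-led clusters of these libraries held 26.3 and 24.9 CPM (11 and 14 UMIs), and the difference was not tested.

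**Figure D3:**
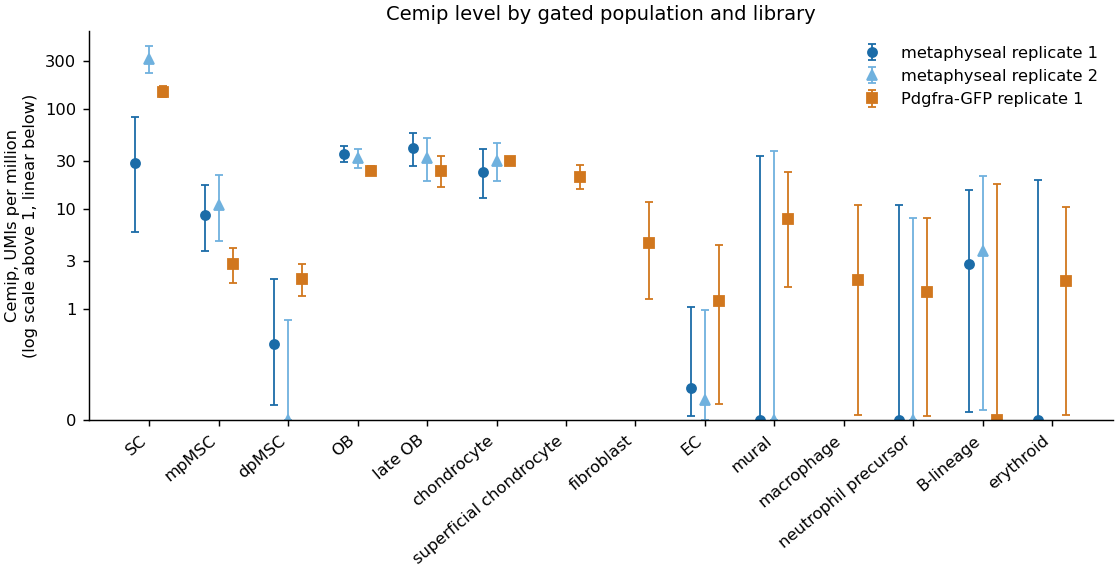
*Cemip* level in each population and library, in CPM on a log scale above 1 and a linear one below, with 95% Poisson intervals. SC stand highest in metaphyseal replicate 2 (317) and the Pdgfra-GFP library (149), while OB, late OB and chondrocytes share a band from 23.6 to 40.5.

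The stretch before the *Cemip* transcription start holds a TATA motif, TATAAA, which begins 29 bases before the start. It is shown because the members were chosen on the *Cemip* level. On the given strand, TATAAA occurs in the 250 bases before the start of 7.59% of 32851 RefSeq promoters (GRCm38.p6). Neither the AP-1 motif TGANTCA, nor the cyclic AMP motif TGACGTCA, nor GTGGGAA, a site of the Notch-pathway factor RBPJ, was found there on either strand. They occur in 6.75%, 1.55% and 5.42% of promoters. Capitals mark the TATA motif, 5′ to 3′, chr7:84086506-84086755, minus strand.
Cemip: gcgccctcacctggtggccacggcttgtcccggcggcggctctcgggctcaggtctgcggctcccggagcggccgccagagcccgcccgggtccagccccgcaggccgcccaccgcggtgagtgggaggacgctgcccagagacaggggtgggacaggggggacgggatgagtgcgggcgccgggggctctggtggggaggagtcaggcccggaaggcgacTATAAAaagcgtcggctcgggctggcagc

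Of the 3 synthases, *Has2* (chr15:56665627-56694539, minus strand) was the one with the most UMIs in chondrocytes and in mpMSC. Chondrocytes held 13.5, 8.3 and 7.23 CPM of *Has2* and mpMSC 11, 9.7 and 2.59 CPM, above 0.456, 0.489 and 0.743 CPM in dpMSC in every library. *Has2* was 18.8-fold higher in chondrocytes (log2 4.23 ± 0.53, adjusted p = 2.88e-06) and 8.19-fold higher in mpMSC (log2 3.03 ± 0.58, adjusted p = 0.000662). The mpMSC value in the Pdgfra-GFP library was the lowest of the 3, and without that library the log2 difference was 4.47. Droplets near empty held 0.465, 2.28 and 3.46 CPM of *Has2*, and the part of free RNA was not tested. In SC, 1 *Has2* UMI was seen over all 3 libraries. The fitted difference from dpMSC of 0.04 ± 2.18 (adjusted p = 0.998) is too wide to read, and each SC library's floor of 3 UMIs (28.6, 21.6 and 1.84 CPM) lies above the dpMSC level. EC held 0 *Has2* UMIs in 14147190. Pooled over the libraries, with a floor of 3 UMIs over the group, this is at least 3.07-fold below dpMSC. That bound ignores the library: the metaphyseal libraries gave 6888718 and 5596574 of the EC UMIs. The Pdgfra-GFP library gave 12 of the 16 *Has2* UMIs of dpMSC. In the test *Has2* was also called lower in EC. That call (adjusted p = 0.01) was lost without the Pdgfra-GFP library or without metaphyseal replicate 1. OB held 0, 1.16 and 0.112 CPM (-0.46 ± 0.85, adjusted p = 0.676).

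*Has2os* is an antisense transcript that shares 182 of the 4237 *Has2* exon bases on the opposite strand. As the strand setting of the counting is not given in the sources used here, reads in that stretch cannot be told apart. *Has2os* stood at 10.1, 12.4 and 15.1 CPM in chondrocytes against 0.228, 0.489 and 1.18 CPM in dpMSC (log2 4.50 ± 0.43, adjusted p = 3.19e-07), and it was also higher in OB (2.26 ± 0.48, adjusted p = 0.00081), where *Has2* did not pass the test.

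*Has1* (chr17:17843323-17855205, minus strand) lay outside the tested populations. Fibroblasts, which came from the Pdgfra-GFP library alone, held 107 CPM (95% Poisson interval 86.7 to 132; 93 UMIs in 31 of 144 cells), and superficial chondrocytes of the same library 17.5 CPM. Superficial chondrocyte is the name of that gate, whose cells lay in clusters with unlike leading genes. The cluster led by *Kera*, *Igfbp6* and *Slurp1* (84.6% of 65 cells from the gate) held 38.6 CPM of *Has1*. Those led by *Tnmd* and *Angptl7* (57.4% of 345) and by *Cytl1* and *Cilp* (44.2% of 303) held 8.26 and 6.56 CPM. A cluster led by *Mfap5* and *Clec3b*, wider than the fibroblast gate, reached 237 CPM of *Has1* over 257 cells. No SC of any library held a *Has1* UMI. In OB of the Pdgfra-GFP library 45 of 78 *Has1* UMIs came from 1 cell, and without it the OB level of 4.36 CPM was 1.85 CPM. Late OB held 6.99, 17.1 and 0.709 CPM on 5, 9 and 1 UMIs. *Has3* (chr8:106870242-106884566, plus strand) was nearly silent, with 15 UMIs over all 35 population sums.

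*Tnfaip6* (chr2:52038009-52056686, plus strand) had its highest level in the same fibroblasts. They held 392 CPM (339 UMIs in 47 of 144 cells), of which 1 cell gave 105 UMIs, or 31.0%, and without that cell the level was 275 CPM. Cells of the superficial chondrocyte gate held 58.8 CPM. Among the clusters rich in that gate, the one led by *Tnmd* and *Angptl7* held 72.4 CPM of *Tnfaip6*. Those led by *Kera* and by *Cytl1* and *Cilp* held 28.1 and 27.9 CPM. Stromal populations were lower, at 10.5, 15.9 and 19.4 CPM in dpMSC and 13.2, 6.93 and 17.1 CPM in mpMSC, and the difference did not pass (log2 -0.15 ± 0.25, adjusted p = 0.711). OB held 2.79, 2.7 and 3.13 CPM of *Tnfaip6*, below dpMSC in 3 of 3 libraries (2.88-fold, log2 -1.53 ± 0.27, adjusted p = 6.76e-05), a call lost with the stricter gate and with clusters in place of gates (-0.92 and -0.54). EC held 0, 0.357 and 0.602 CPM (51.6-fold lower, log2 -5.69 ± 0.45, adjusted p = 1.91e-09). SC held 0, 7.21 and 5.53 CPM on 0, 1 and 9 UMIs (3.38-fold lower than dpMSC, log2 -1.76 ± 0.46, adjusted p = 0.00831). The SC call was lost without the Pdgfra-GFP library at the same difference of -1.76 (adjusted p = 0.518), and also without the library block (0.169), with the stricter gate (0.141) and with clusters in place of gates (0.475). Chondrocytes held 3.37, 12.4 and 14.5 CPM and did not pass (0.04 ± 0.26, adjusted p = 0.911). In near-empty droplets *Tnfaip6* was 6.98, 3.65 and 19.3 CPM, and the part of free RNA was not tested.

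Late OB held 30.7, 131 and 16.3 CPM of *Tnfaip6*. In metaphyseal replicate 1, 13 of the 22 UMIs were in 1 cell, and without it the level was 13.1 CPM. In metaphyseal replicate 2, 59 of the 69 UMIs were in 1 cell, and without it the level was 19.3 CPM. That cell lay in the *Col10a1*-led cluster named chondrocyte, which held 71 *Tnfaip6* UMIs. The cluster named OB, where 19 of the 28 late OB lay, held 21 in all.

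Of the members highest in fibroblasts, *Has1* and *Tnfaip6* each hold one of the motifs searched and *Cd44* holds none, and the promoters with a match are shown. *Has1* has the cyclic AMP motif TGACGTCA, beginning 83 bases before the RefSeq start. *Tnfaip6* has the AP-1 motif as TGAGTCA, beginning 142 bases before it. None of the motifs was found in the windows of *Cd44*, *Hyal1* or *Hyal2*, which says only that these letters are not in those windows. The *Hyal2* window, set before the RefSeq start, lies wholly past the Gencode start of that gene. Of the 8 members, 6 matched a promoter entry. Capitals mark the motif, 5′ to 3′, and each stretch ends at the earlier of the RefSeq and Gencode starts. *Has1* is at chr17:17855206-17855438 on the minus strand and *Tnfaip6* at chr2:52037863-52038008 on the plus strand (GRCm38.p6).
Has1: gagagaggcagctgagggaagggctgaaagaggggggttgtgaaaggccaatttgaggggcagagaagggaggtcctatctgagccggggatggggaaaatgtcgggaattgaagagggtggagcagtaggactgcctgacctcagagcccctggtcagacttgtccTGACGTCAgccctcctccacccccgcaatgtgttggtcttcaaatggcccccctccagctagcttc
Tnfaip6: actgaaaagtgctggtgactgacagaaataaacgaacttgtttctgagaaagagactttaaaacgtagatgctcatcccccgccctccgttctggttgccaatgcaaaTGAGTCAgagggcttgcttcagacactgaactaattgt

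*Hyal2* (chr9:107567945-107572779, plus strand), the hyaluronidase of the cell surface, was the member of endothelium. EC held 154, 152 and 163 CPM against 34.6, 33.8 and 33.7 CPM in dpMSC. Near-empty droplets held 77.2, 81.7 and 24.2 CPM of *Hyal2*, and the part of free RNA in its levels was not tested. *Hyal2* was 4.92-fold higher in EC (log2 2.30 ± 0.11, adjusted p = 3.45e-12), in 3 of 3 libraries, and this difference lay between 2.19 and 2.34 under every alternative run. Among EC, arterial cells were highest with 202, 211 and 212 CPM, metaphyseal EC held 162, 173 and 155 CPM and sinusoidal EC 129, 125 and 135 CPM, without overlap between these 3 kinds. EC assigned to none of them held 112 to 150 CPM, which spans the sinusoidal values. How many of all genes separate the 3 kinds in this way was not counted. The share of EC with a *Hyal2* UMI at 2000 UMIs per cell was 25.0%, 25.5% and 25.2%, against 6.75%, 5.72% and 6.68% in dpMSC. At that depth neutrophil precursors held a UMI in 0 of 24, 0 of 30 and 1 of 63 cells. Unthinned, 6 of the 63 in the Pdgfra-GFP library held one.

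In bone-forming cells *Hyal2* was low. OB held 11.2, 8.11 and 7.72 CPM, 2.06-fold below dpMSC (log2 -1.05 ± 0.13, adjusted p = 1.44e-06), and -1.97 on the plain scale. SC held 38.1, 50.5 and 41.2 CPM, above dpMSC in 3 of 3 libraries, which did not pass (0.35 ± 0.17, adjusted p = 0.158). mpMSC held 32.0, 29.1 and 33.3 CPM (0.02 ± 0.13, adjusted p = 0.948). In chondrocytes, with 32.0, 40.1 and 34.2 CPM, *Hyal2* was called higher (0.56 ± 0.13, adjusted p = 0.00132), but with total UMI scaling the difference was 0.05 (adjusted p = 0.868).

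*Hyal1* (chr9:107576927-107581710, plus strand), the lysosomal hyaluronidase, showed small differences. The dpMSC held 22.6, 19.1 and 18.2 CPM, EC 12.8, 14.8 and 22.3 CPM, and OB 7.13, 6.57 and 4.64 CPM. Near-empty droplets held 7.44, 9.13 and 8.28 CPM of *Hyal1*, above OB and below dpMSC in each library. The part of free RNA in the *Hyal1* levels was not tested. OB lay 1.89-fold below dpMSC (log2 -0.92 ± 0.22, adjusted p = 0.00145), in 3 of 3 libraries. The calls in mpMSC (7.73, 8.32 and 14.9 CPM; -0.63 ± 0.23, adjusted p = 0.0465) and chondrocytes (6.74, 6.91 and 10.2 CPM; -0.61 ± 0.24, adjusted p = 0.0379) stood just inside the threshold. Both were lost without the library block (adjusted p = 0.17 and 0.133), without either metaphyseal library, with DESeq2 (0.0661 and 0.0687) and with the stricter gate (0.0925 and 0.109), the mpMSC call also with clusters in place of gates (0.0837), and the chondrocyte call with SC taken by 2 of 3 markers (0.0559). SC held 9.54, 7.21 and 11.7 CPM on 1, 1 and 19 UMIs (-0.86 ± 0.35, adjusted p = 0.091). In EC the difference of -0.22 ± 0.20 did not pass (adjusted p = 0.372), while without the Pdgfra-GFP library it was -0.53 (adjusted p = 0.00971). The gene shares 159 of its 3777 exon bases with *Hyal3* on the same strand, whose own level was at most 3.93 CPM.

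*Cd44* (chr2:102811141-102901665, minus strand), the receptor, was found in most populations and was low in endothelium. Fibroblasts held 283 CPM and macrophages 167 CPM in the Pdgfra-GFP library, neutrophil precursors 157, 200 and 93.8 CPM, and late OB 53.1, 89.5 and 149 CPM. B-lineage cells held 28.8 to 53.3 CPM and erythroid cells 7.61 and 52.7 CPM of *Cd44*. A *Dmp1*- and *Dkk1*-led cluster of the Pdgfra-GFP library reached 304 CPM of *Cd44*. Some late OB of metaphyseal replicates 1 and 2 lay in clusters named chondrocyte, and the *Col10a1*-led ones held 168 and 249 CPM of *Cd44*. EC held 0.726, 2.14 and 1.81 CPM, 12.3-fold below dpMSC at 18.7, 17.4 and 16.4 CPM (log2 -3.62 ± 0.39, adjusted p = 1.43e-07). Among EC *Cd44* was at or below 4.65 CPM in every kind and library. In near-empty droplets it was 21.9, 21.5 and 29.8 CPM, above dpMSC, and the part of free RNA was not tested.

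SC held 47.7, 93.8 and 37.5 CPM of *Cd44* on 5, 13 and 61 UMIs, above dpMSC in 3 of 3 libraries (2.97-fold, log2 1.57 ± 0.34, adjusted p = 0.00194). In metaphyseal replicate 1, 1 cell gave 3 of the 5 UMIs. Without the top cell of each library the SC levels were 21.1, 82.5 and 31.6 CPM. mpMSC held 45.3, 33.3 and 28.2 CPM (2.13-fold higher, log2 1.09 ± 0.26, adjusted p = 0.00304), a range that overlaps that of SC. Both calls were lost when populations were taken as clusters instead of gates (adjusted p = 0.0974 and 0.0645), with differences of 1.82 and 1.29. OB held 21.4, 26.7 and 18.5 CPM. The call of *Cd44* as higher in OB (log2 1.22 ± 0.24, adjusted p = 0.000217) became 0.30 with total UMI scaling (adjusted p = 0.266). Chondrocytes held 25.3, 41.5 and 10.3 CPM (0.55 ± 0.29, adjusted p = 0.113), and without the Pdgfra-GFP library the difference was 1.36 (adjusted p = 0.00106).

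**Figure D4:**
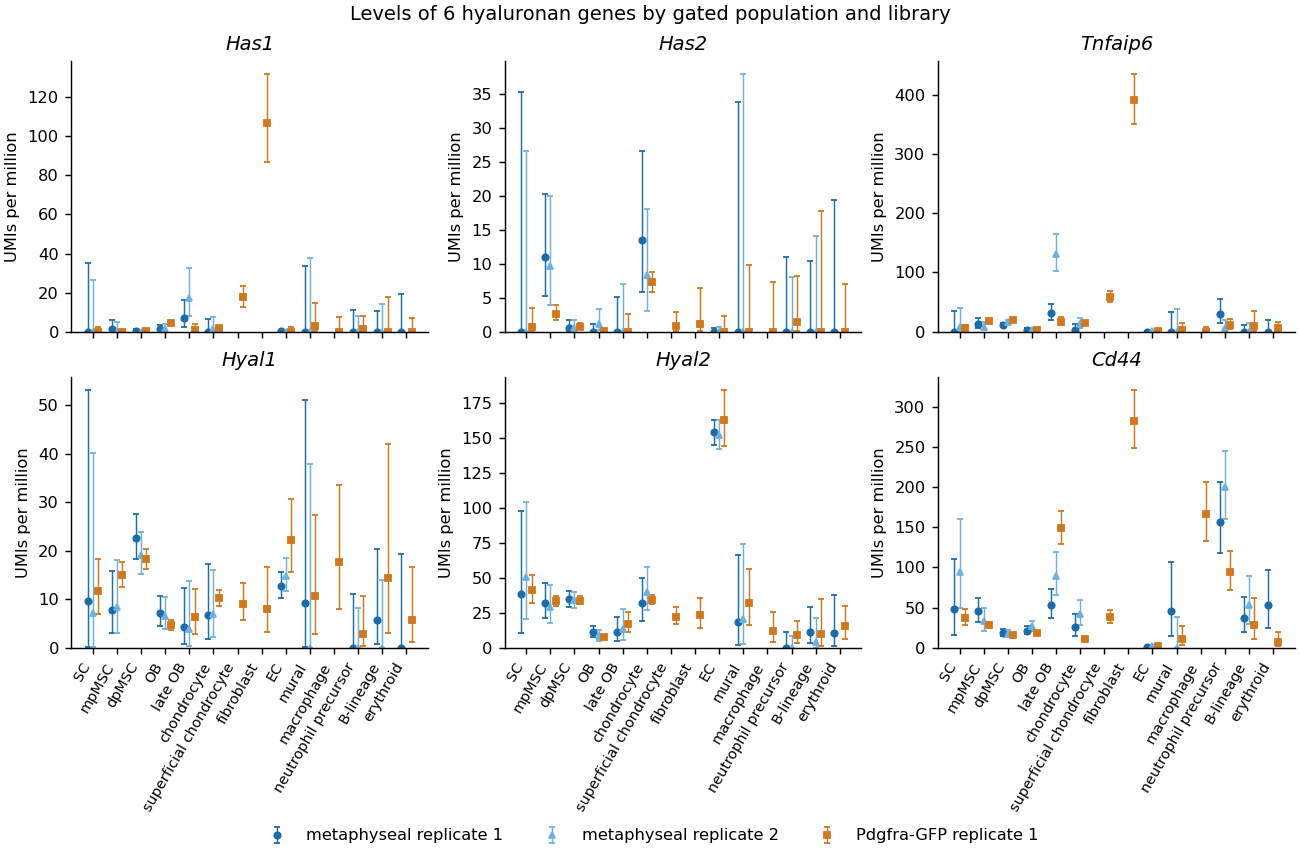
Levels of 6 members by population and library, in CPM with 95% Poisson intervals; each panel has its own linear axis, *Cemip* is plotted on its own, and *Has3*, with 15 UMIs in all, is left out. *Hyal2* stands near 154 in EC, *Has1*, *Tnfaip6* and *Cd44* peak in the fibroblasts of the Pdgfra-GFP library at 107, 392 and 283, and *Has2* is highest in chondrocytes and mpMSC.

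The other tested members are set side by side in SC and mpMSC here, as values with no test. *Hyal2* was 0.24, 0.77 and 0.30 higher in SC on the log2(CPM + 1) scale and *Cd44* 0.07, 1.47 and 0.40 higher. *Tnfaip6* differed by -3.83, 0.05 and -1.47, *Hyal1* by 0.27, -0.18 and -0.32, and *Has2* by -3.58, -3.42 and -1.15. The *Has2* values set 0, 0 and 1 UMIs in SC against 10, 7 and 24 in mpMSC.

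The wider pathway was described by 39 further genes, of which 26 were tested. In chondrocytes 15 of 26 were higher than in dpMSC and 5 lower (all genes 27.7% and 27.8%), in OB 13 and 6 (28.1% and 29.5%), and in mpMSC 10 and 2 (15.9% and 14.6%). In EC 6 were higher and 11 lower (29.9% and 26.1%), and in SC 2 and 2 (11.2% and 11.3%), a share near the background. Their median log2 difference was 1.19 in chondrocytes, where that of all genes was -0.06, and -0.52 in EC, where it was 0.06. With total UMI scaling the counts were 13 and 7 in chondrocytes, 8 and 10 in OB, 9 and 2 in mpMSC, 6 and 12 in EC and 2 and 2 in SC.

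Of the genes that make the sugar precursors of hyaluronan and of other matrix sugars, 8 of 9 were higher in chondrocytes (all genes 27.7%) and *Nagk* was lower, with 6 and 1 under total UMI scaling. In OB 6 of 9 were higher and 2 lower (all genes 28.1% and 29.5%), which turned to 3 and 4 under that scaling. In mpMSC 4 of 9 were higher and none lower (all genes 15.9% and 14.6%). In EC 6 of 9 were lower (all genes 26.1%), and in SC none of the 9 passed, with *Ugdh* and *Gfpt1* at 0.13 and 0.20. *Ugdh*, the enzyme that makes UDP-glucuronic acid, held 177, 216 and 170 CPM in chondrocytes against 34.6, 37.9 and 46.9 CPM in dpMSC (6.49-fold, log2 2.7 ± 0.20, adjusted p = 1.78e-09). Fibroblasts held 537 CPM of *Ugdh*. *Gfpt2*, an enzyme of the hexosamine route, was 49.4-fold higher in chondrocytes (62.3, 85.7 and 56.4 CPM against 1.82, 0.979 and 2.17; log2 5.63 ± 0.28, adjusted p = 4.14e-11) and was not seen in SC. *Pgm3*, of the same route, was 5.71-fold higher in OB (log2 2.51 ± 0.14, adjusted p = 3.38e-11).

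Of the 6 tested hyaluronan-binding matrix genes, 5 were higher in OB (all genes 28.1%), 4 in chondrocytes (27.7%) and 3 in mpMSC (15.9%). In EC 1 was higher (29.9%) and in SC 1 (11.2%). With total UMI scaling 3 were higher in OB, and the other counts of higher genes stayed the same. Near-empty droplets held 97.2, 106 and 315 CPM of *Acan* and 187, 201 and 498 CPM of *Hapln1*. The part of free RNA in these calls was not tested. *Hapln3* was higher in 4 of these populations, by 6.24 in chondrocytes, 5.52 in OB, 3.58 in EC and 3.30 in mpMSC on the log2 scale. *Acan* and *Hapln1*, aggrecan and its link protein, were both higher in chondrocytes, where *Hapln1* held 5445, 4549 and 2141 CPM. *Hapln4* held 23.9, 22.4 and 26.7 CPM in OB, and *Bcan* 30.1, 40.6 and 37.7 CPM. *Vcan*, versican, was high in stroma: mpMSC held 428, 470 and 485 CPM and SC 305, 447 and 250 CPM, against 55.8, 46.0 and 36.0 CPM in dpMSC. *Vcan* was 11.2-fold higher in mpMSC (log2 3.48 ± 0.27, adjusted p = 2.11e-08) and 7.1-fold higher in SC (log2 2.83 ± 0.29, adjusted p = 9.5e-07), and lower in chondrocytes (-2.07 ± 0.36, adjusted p = 6.72e-05).

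Of the further receptors, 4 of 4 tested were higher in EC (all genes 29.9%), and *Layn* and *Hmmr* were also higher in mpMSC and chondrocytes. *Stab1* and *Stab2*, scavenger receptors that clear hyaluronan, held 540, 565 and 281 CPM and 318, 329 and 251 CPM in EC. *Stab2* was sharply sinusoidal, at 837, 817 and 887 CPM in sinusoidal EC and at most 3.76 CPM in arterial EC. *Layn* followed at 31.6, 26.6 and 21.1 CPM in EC. *Cemip2*, a relative of *Cemip* on the cell surface, was also higher in EC (126, 122 and 71.0 CPM; log2 1.12 ± 0.18, adjusted p = 1.97e-05), where *Cemip* itself was at most 1.2 CPM. *Hmmr*, a hyaluronan receptor that is also a gene of dividing cells, was called higher than dpMSC in all 5 populations. Among them were SC (3.68 ± 0.49, adjusted p = 1.6e-05), where 0, 1 and 21 cells carried cycling markers. With clusters in place of gates its direction turned in SC (-0.20) and mpMSC (-0.41). In the Pdgfra-GFP library the clusters named OB took in 30 SC and 111 mpMSC. They also included a cluster of 299 cells led by *Cenpa* and *Birc5*, genes of dividing cells, with 38.5% in no gate. The part of this in the turn was not tested.

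*Itih5* and *Ptx3*, whose proteins bind hyaluronan chains or cross-link their heavy chains, were highest in dpMSC among the tested populations. Levels outside these populations are not given here. In the Pdgfra-GFP library *Itih5* was also among the leading genes of a cluster of 35 cells, 91.4% of them outside every gate. *Itih5* held 196, 208 and 85.0 CPM and *Ptx3* 295, 298 and 274 CPM in dpMSC, and both were lower in all 5 other populations tested. In SC they stood at 9.54, 0 and 3.69 CPM (log2 -5.17 ± 0.79, adjusted p = 7.15e-05) and 0, 0 and 39.3 CPM (-3.77 ± 0.54, adjusted p = 3.32e-05).

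**Figure D5:**
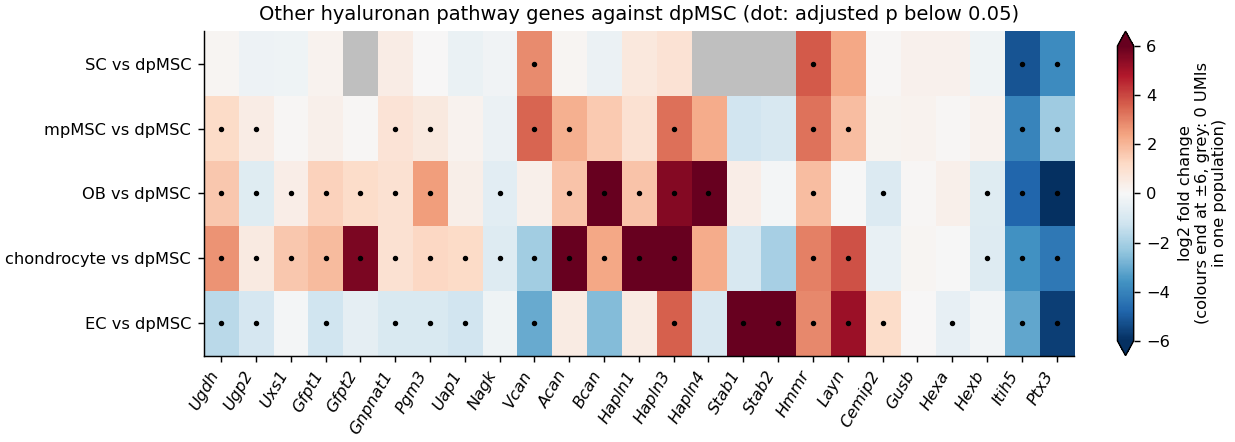
Log2 fold change against dpMSC (colour, ending at 6 in both directions) of the tested pathway genes other than *Has2os*, by population; a dot marks a gene that passed the test and grey a gene at 0 UMIs in one of the populations. The chondrocyte row is mostly raised, the EC row is lowered among precursor genes and raised among receptors, and the SC row has 4 dots.

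The genes whose levels went most like 5 of the members over the 35 population sums, among 5988 genes, are given as a description. The sums share libraries and depth. For *Cemip* they were *Smoc2* (Pearson's r = 0.83), *Timp1* (0.80) and *Spp1* (0.78), for *Hyal2* *Ppfibp1* (0.88), *Aplp2* (0.87) and *Slc39a1* (0.87), and for *Hyal1* *Laptm4b* (0.89), *Saysd1* (0.86) and *0610012G03Rik* (0.84). *Has1* was most like *Tnfaip6* (0.70), followed by *Mt2* (0.66) and *Ackr3* (0.65), and *Tnfaip6* was most like *Ugdh* (0.69), *Sod3* (0.67) and *Lpar1* (0.66). *Has2* and *Has3* had under 200 UMIs and were not ranked.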

How the data were processed

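Droplet 3′ single-cell RNA was sequenced by the authors from long bones of mice aged 3 weeks. Per the labels and methods, the authors aligned reads to mm10 (Gencode M23) with STARsolo (STAR 2.7.3a; fastp 0.20) and deposited unfiltered UMI counts per gene and barcode, whole numbers with no normalization. From these counts, barcodes with at least 1500 (metaphyseal) or 1000 (Pdgfra-GFP) genes, at most 15% mitochondrial and 30% ribosomal UMIs were kept as cells. A marker was on where its UMIs exceeded 10% of the cell's UMIs spread as in near-empty droplets (Poisson p below 0.01). A population needed 3 of 5 or 2 of 4 markers, SC 4 of 8. The SC gate was set after 2 of its first 3 markers left 8 and 9 cells in the metaphyseal libraries. Scrublet doublets (25, 18 and 160 cells) were kept and removed as an alternative. UMIs were summed per library and population of at least 10 cells, 18 sums in the fit, and tested in edgeR 4.0.16 (R 4.3.3; filterByExpr, TMM, adjusted p below 0.05), leaving out the 80 gate genes. On simulated data (OB against dpMSC) the share of false calls stayed below the threshold with dispersions set by the trend and exceeded it with dispersions per gene, so the adjusted p may be too small. DESeq2 1.42.0, RLE and total UMI scaling, no filter, no block, a stricter gate, Leiden clusters (scanpy 1.11.5), shared barcodes removed and each library left out were alternatives. The members are the genes of the given list, all named; a pathway gene may be named where it passed a test or reached 20 CPM in a population with sums in 2 or more libraries. Members and lists were chosen with earlier results of these data known. The likeness ranking of *Cd44* is not reported here. Positions are from Gencode M21 on the same build, and promoters from RefSeq.

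The total depth was 25243314, 22082735 and 91747759 UMIs. Shares have exact binomial and levels exact Poisson intervals, for counting error only. Populations of 1 library are paired by their shared cell suspension, so the library is the block.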

Additional observations from a re-analysis of the deposited data

Results flagged for a closer look

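In both metaphyseal libraries *Hyal1* was lower in EC than in dpMSC, by -0.77 and -0.35 on the log2(CPM + 1) scale in replicates 1 and 2, and in the Pdgfra-GFP library it was higher by 0.28. *Cd44* in chondrocytes was above dpMSC by 0.42 and 1.21 in metaphyseal replicates 1 and 2 and below it by -0.62 in the Pdgfra-GFP library. Both stand out because the kinds of library moved in opposite directions. The difference between them was not tested. With 1 Pdgfra-GFP library the bone region taken, the sort or bead depletion, the genotype and the library cannot be told apart. The chondrocytes were 37, 36 and 1461 cells.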

How the results depend on the processing

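Alternatives that leave out 1 library gave 5697 to 7782 called genes for EC against dpMSC (7284 in the report), 6081 to 7036 for OB (7507), 5372 to 6099 for chondrocytes (7229), 2535 to 3540 for mpMSC (3980) and 1194 to 2089 for SC (2929); the lowest mpMSC value is without metaphyseal replicate 1 and the lowest SC value without the Pdgfra-GFP library. Without the library block, which pairs the populations of a suspension, 2138 genes were called in mpMSC and 1718 in SC, and with Leiden clusters 1889 in SC. The SC to mpMSC ratio of *Cemip* ranged from 8.91 to 32.2 without 1 library. Its share of SC in the Pdgfra-GFP library was 35.5% unthinned and 13.1% at 1000 UMIs.

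Of 364 values of members under an alternative, 317 kept direction and call, 24 lost the call, 5 gained it and 18 changed sign. *Cemip* in OB and chondrocytes, *Has2* in chondrocytes and mpMSC, *Hyal2* in EC and OB, *Hyal1* in OB, and *Cd44* and *Tnfaip6* in EC kept both throughout. The changes of sign were all in differences that had not passed. Without 1 library, *Has2* ranged from -1.63 to 0.83 in OB and from -3.22 to 0.05 in SC, *Hyal1* in EC from -0.53 to 0.02, and *Tnfaip6* from -0.30 to 0.01 in mpMSC and from -0.22 to 0.08 in chondrocytes. *Has2* was 0.83 in OB without the Pdgfra-GFP library, and in SC -0.05 with no filter, -0.11 without the block, -3.22 without the Pdgfra-GFP library and -0.05 without metaphyseal replicate 1. *Hyal1* in EC was 0.02 without metaphyseal replicate 1. *Hyal2* in mpMSC was -0.01 with RLE and with DESeq2, -0.05 with no filter, -0.11 with the stricter gate, -0.00 with SC by 2 of 3 markers and -0.08 with total UMI scaling, and in SC -0.03 with the stricter gate. *Tnfaip6* in mpMSC was 0.01 without metaphyseal replicate 2 and 0.02 with Leiden clusters, and in chondrocytes -0.02 with no filter, -0.22 without the Pdgfra-GFP library and -0.48 with total UMI scaling. Among pathway genes *Hmmr* was -0.41 in mpMSC and -0.20 in SC with Leiden clusters, and *Uxs1* was -0.50 in OB with total UMI scaling, the only 3 called values that reversed. *Tnfaip6* in OB lost its call with the stricter gate (-0.92) and Leiden clusters (-0.54), *Cd44* in chondrocytes gained one without the Pdgfra-GFP library (1.36) and with Leiden clusters (1.91), and *Tnfaip6* in chondrocytes gained one with Leiden clusters (1.71). The clusters named chondrocyte took in 5 and 9 late OB in metaphyseal replicates 1 and 2. Those led by *Col10a1* held 101 and 253 CPM of *Tnfaip6* and 168 and 249 CPM of *Cd44*. Those led by *Col2a1* held 4.78 and 12.5 CPM of *Tnfaip6* and 9.56 and 16.0 CPM of *Cd44*. Where a construction did not show the cause of a change, that cause was not tested. Total UMI scaling, SC by 2 of 3 markers and the removal of shared barcodes were chosen after seeing the data. Depth limits SC most, at 104851 and 138651 UMIs in the metaphyseal libraries, and the stricter gate leaves 2 SC sums. Leiden clusters and the choice by 2 of 3 markers leave 1, which is then assumed to vary like the other populations.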
